A study of Mus musculus with 12 samples.

Results

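The 5 genes Amph, Lman1l, Shisa2, Moxd1 and Lrrn1 were chosen for their large rises in mouse lung tumours that had lost Dnmt3a. They are read by 8 of the 41174 probes of the array, 2 each for Amph, Lman1l and Lrrn1 and 1 each for Shisa2 and Moxd1. A probe was taken when its gene name was one of these 5, and the probe of Shisa2 carried the older name Tmem46 in the files and was found through its RefSeq accession. Because the choice rested on the mean KO over WT ratio over these same 12 arrays, that ratio is given below as a description with no test, for every probe of the 5 genes.

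Each of 12 2-colour Agilent arrays compared total RNA of a KO lung tumour with total RNA of a WT lung tumour, from mice of C57/129 background. All animals carried the K-ras LSL-G12D allele, a mutant oncogene kept silent until Cre recombinase removes a stop cassette, and all received a Cre-expressing adenovirus through the airways at 6 to 12 weeks of age. KO animals also carried conditional Dnmt3a alleles on both chromosomes, which the same virus deletes, whereas WT animals had intact Dnmt3a, and the mutant K-ras and the virus were thus common to both. Cre acts only in the cells the virus enters, so stroma within a KO tumour keeps its Dnmt3a alleles, and in RNA of whole tumours fewer cells of a type and less RNA per cell cannot be told apart. Equal ages and sexes in the labels put the arrays in 4 pairs, with ages in a unit not given in the sources used here. Pair A (replicates 1 to 4) set a male KO of age 47.7 against a male WT of age 42.6, and pair B (replicates 5 to 8) a male KO of age 27 against a male WT of age 41.3. Pair C (replicates 9 and 10) set a male KO of age 27 against a female WT of age 47.6, and pair D (replicates 11 and 12) a male KO of age 29.1 against a male WT of age 37.3. The KO RNA was in Cy5 on replicates 1, 3, 5, 7, 9 and 10 and in Cy3 on the other 6. All 12 arrays count as biological replicates in the design text. The labels carry no tumour or animal identifier, so p-values measure the spread between arrays, which within a pair may be technical. Pairs B and C have KO animals of the same age and sex and may share one.

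Pairs A and B lay on a slide of their own each and pairs C and D shared the third, so slide and pair cannot be told apart for A and B. On the first 2 slides 86.2% to 90.1% of probes were well above background in either RNA, against 63.6% to 73.5% on the third. As a check of the labels, all 3 kept probes of Dnmt3a were lower in KO, at log2 ratios of -0.56, -0.25 and -0.21, with limma adjusted p over all probes of 0.00123, 0.00931 and 0.0111, and they were below 0 on 12, 11 and 12 of 12 arrays. Where the deleted exons lie relative to these probes was not analysed here. All 11 genes of the tumour epithelium list, called the alveolar type 2 list below, were well above background in both RNAs on 12 of 12 arrays. Besides alveolar type 2 genes it holds Epcam, Cdh1 and Nkx2-1, which other epithelial cells also express. Endothelial markers were lower in KO for 8 of 8 genes, as described below. Of 20419 genes tested, 2175 (10.7%) were called between KO and WT at a limma adjusted p under 0.05, 1079 of them (5.28%) higher and 1096 (5.37%) lower in KO, and the median log2 ratio of all genes was -0.0055.

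Dnmt3a is a de novo DNA methyltransferase: it adds methyl groups to cytosines, mostly where cytosine is followed by guanine (CpG), and methylated CpG-rich promoters are usually silent. The 5 genes have no common pathway. Amph encodes amphiphysin, which bends membranes and brings dynamin to clathrin-coated pits, best known from nerve terminals. Lman1l encodes a relative of Lman1, the lectin that carries glycoproteins from the endoplasmic reticulum to the Golgi. Shisa2 encodes a membrane protein of the endoplasmic reticulum that holds back immature Frizzled (Wnt) and fibroblast growth factor receptors. Moxd1 encodes a copper-dependent monooxygenase related to dopamine beta-hydroxylase. Lrrn1 encodes a transmembrane protein with leucine-rich repeats, known from the developing nervous system.

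Promoters are shown here because the deleted enzyme acts on CpG. Methylation itself was not measured on these arrays. The reference table of RefSeq promoter windows (build GRCm38.p6, 250 bases before to 50 bases after each gene's start) held all 5 genes. The 3 windows printed span the range of CpG content, each without its last 50 bases, 5′ to 3′ on the gene's strand, with every CpG in capitals (the motif CG reads the same on both strands).

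Lrrn1, chr6:107529476-107529725 (+): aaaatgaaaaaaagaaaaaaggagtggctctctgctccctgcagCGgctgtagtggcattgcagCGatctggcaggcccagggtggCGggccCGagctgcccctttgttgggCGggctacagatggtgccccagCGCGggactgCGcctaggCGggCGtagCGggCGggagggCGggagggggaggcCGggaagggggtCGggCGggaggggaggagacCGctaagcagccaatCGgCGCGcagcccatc

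Amph, chr13:18948101-18948350 (+): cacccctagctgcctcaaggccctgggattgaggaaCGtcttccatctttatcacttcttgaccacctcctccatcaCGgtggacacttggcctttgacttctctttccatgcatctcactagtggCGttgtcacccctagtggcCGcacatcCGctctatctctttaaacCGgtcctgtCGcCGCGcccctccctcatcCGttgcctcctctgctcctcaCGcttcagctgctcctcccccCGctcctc

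Lman1l, chr9:57620775-57621024 (-): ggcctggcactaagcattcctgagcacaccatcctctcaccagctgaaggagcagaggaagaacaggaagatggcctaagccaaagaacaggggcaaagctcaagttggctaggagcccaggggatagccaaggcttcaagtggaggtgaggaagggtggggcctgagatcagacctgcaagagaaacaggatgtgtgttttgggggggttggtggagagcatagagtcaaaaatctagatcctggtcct

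The whole windows held 24 CpG for Lrrn1, 20 for Shisa2, 19 for Amph, 13 for Moxd1 and 3 for Lman1l, whose 3 all lie after the start. The number of CpG over that expected from base composition was 0.794 for Amph, 0.793 for Shisa2, 0.741 for Lrrn1, 0.461 for Moxd1 and 0.135 for Lman1l. Over all 32851 windows of the table the median was 7 CpG and a ratio of 0.384, 35.8% reached a ratio of 0.6 and 5.43% held no CpG. Amph, Shisa2 and Lrrn1 thus had windows of the CpG-rich kind, Moxd1 lay between, and Lman1l had a CpG-poor one. A link between these windows and the rises was not tested.

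**Figure D1:**
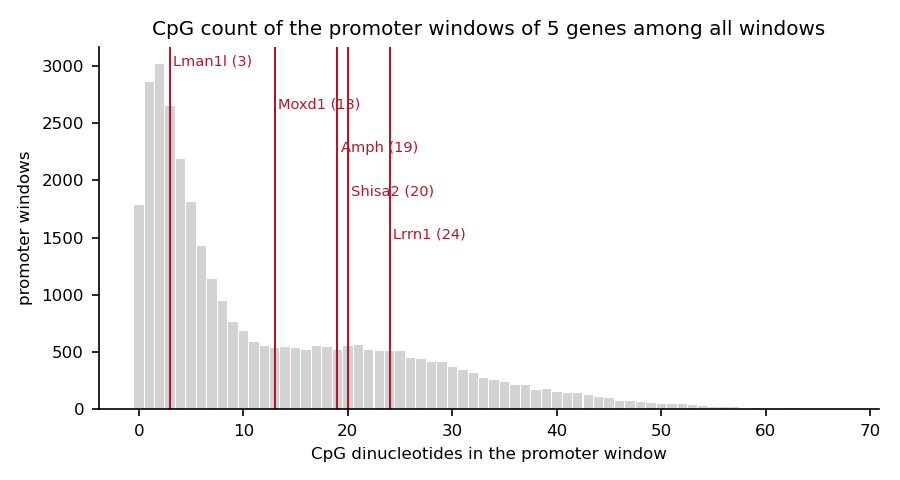
Number of CpG in the promoter window of each of the 5 genes (red lines) over the distribution of all 32851 RefSeq windows of the same length (grey bars, number of windows). Lman1l (3) lies among the CpG-poor windows, and Amph (19), Shisa2 (20) and Lrrn1 (24) lie in the CpG-rich shoulder.

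For each of the 5 genes the brightest probe was above 0 on 11 of 12 arrays, and the fitted mean rise was between 3.70-fold and 5.27-fold. The mean and SE given next for each gene are the KO over WT coefficient of the fit, which has a dye term and the pair as block. The median, range and SD are those of the measured ratios. In Amph the log2 KO over WT ratio ran from -1.26 (replicate 4) through a median of 2.70 to 4.22 (replicate 9). Its mean was 2.40 (SE 0.43, SD over arrays 1.73, n = 12), a 5.27-fold higher level in KO. The probe lies at chr13:18518066-18518125 on the plus strand of build mm7, the build of the file headers, and reads the RefSeq transcript NM_175007. Only replicate 4 was below 0, and replicates 8 and 2, at 0.15 and 0.93, were the next lowest.

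Lman1l ranged from -0.50 (replicate 10) through a median of 2.53 to 4.48 (replicate 1). Its mean was 2.37 (SE 0.36, SD 1.29, n = 12), or 5.18-fold, read by a probe at chr9:57634701-57634760 on the minus strand. Its 4 arrays of pair A were all at 2.42 or above, and replicate 10 was the only array on which the WT RNA was higher.

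Shisa2 ranged from -1.23 (replicate 10) through a median of 2.53 to 3.75 (replicate 6), with a mean of 1.96 (SE 0.44, SD 1.57, n = 12), or 3.89-fold. Its probe lies at chr14:54500039-54500098 on the plus strand. The WT RNA was well above background on 7 of 12 arrays and the KO RNA on 11. Replicate 11, at 0.08, was an array on which neither RNA was well above background.

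Moxd1 ranged from -0.14 (replicate 8) through a median of 2.24 to 3.47 (replicate 6), with a mean of 1.95 (SE 0.31, SD 1.13, n = 12), or 3.87-fold. Its probe lies at chr10:24053329-24053387 on the plus strand. It had the smallest spread of the 5, and replicate 8 was at parity rather than clearly below 0.

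Lrrn1 ranged from -1.11 (replicate 4) through a median of 1.73 to 3.94 (replicate 12), with a mean of 1.89 (SE 0.46, SD 1.65, n = 12), or 3.70-fold. Its probe lies at chr6:107663927-107663986 on the plus strand. Replicates 5 and 10, at 0.05 and 0.49, were the next lowest after replicate 4, and 4 arrays (replicates 1, 6, 9 and 12) lay above 3.6.

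By size of rise these genes ranked 2 (Amph), 3 (Lman1l), 6 (Shisa2), 7 (Moxd1) and 8 (Lrrn1) among the 20419 genes. Their spread was also large: the SD over arrays of each exceeded that of 98.0% to 99.7% of all genes, whose median SD was 0.288. With any single array left out, the fitted mean ran from 2.15 to 2.69 in Amph and from 1.67 to 2.18 in Lrrn1. Those of Lman1l, Shisa2 and Moxd1 lay within 1.67 to 2.69. The genes were chosen for a large mean over these arrays, so these values do not test the rise.

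**Figure D2:**
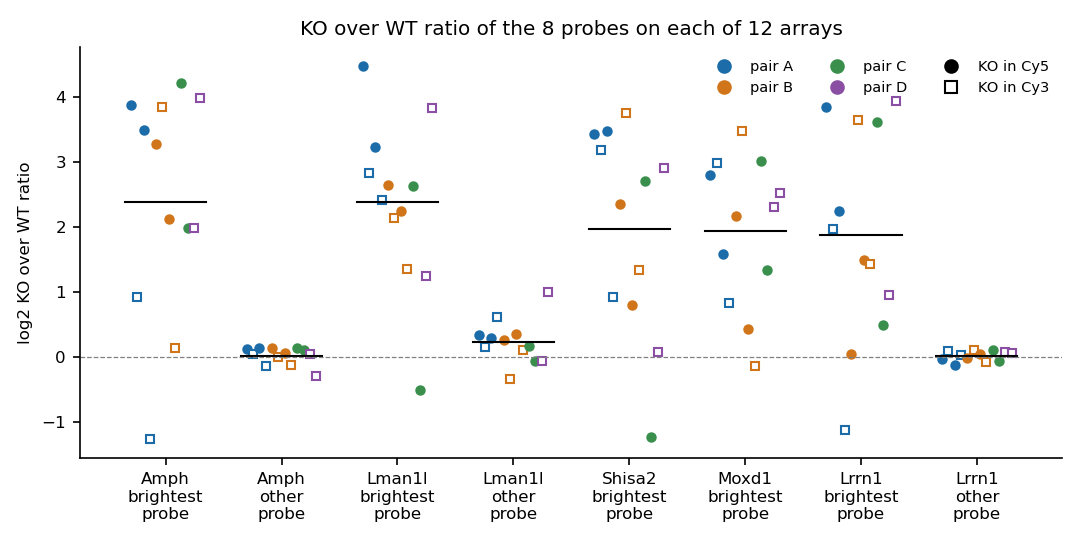
Log2 KO over WT ratio of the 8 probes of the 5 genes on each of 12 arrays (points, coloured by pair, filled where the KO RNA was in Cy5 and open where it was in Cy3), with the mean of each probe as a bar. The 5 brightest probes spread from about 4 down to or below 0, while the other probe of Amph, Lman1l and Lrrn1 stays near 0.

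The same arrays were low for several genes. The mean log2 ratio of the 5 genes was 0.36 on replicate 4, 0.42 on replicate 10 and 0.83 on replicate 8, and it was 3.69, 3.44, 3.37 and 3.24 on replicates 1, 12, 6 and 9. Low and high arrays occurred within the same pair: replicates 1 and 4 are both pair A, replicates 9 and 10 both pair C, and replicates 6 and 8 both pair B. Low arrays also occurred in both dye orientations, with the KO RNA in Cy3 on replicates 4 and 8 and in Cy5 on replicate 10. Over the 12 arrays, which share slides and perhaps animals, the Pearson correlation of the ratios between 2 of the 5 genes was highest for Amph with Lrrn1 (0.83) and Lman1l with Shisa2 (0.82) and lowest for Lman1l with Moxd1 (0.40).

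The levels in each RNA, as normalized log2 signal, placed most of this variation in the WT tumours. For Amph the WT level ran from 7.37 to 11.29 (mean 9.00, SD 1.34) and the KO level from 10.04 to 12.57 (mean 11.39, SD 0.80). The WT level was highest on replicate 4 (11.29), then on replicates 10 (10.44) and 8 (10.41), and the KO level on these arrays was 10.04, 12.42 and 10.56. On replicates 5, 6, 9 and 1 the WT level was between 7.37 and 7.65, a signal 3.29 to 6.03 times the local background. The KO level of Amph thus exceeded every WT level on 7 of 12 arrays, and the ranges overlapped through the few high WT values.

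For Lman1l the WT level ran from 8.36 to 12.28 (SD 1.34) and the KO level from 10.23 to 14.31 (SD 1.23). The WT RNA was brightest on replicates 10 (12.28), 8 (11.73) and 4 (11.45). The KO RNA was brightest on replicates 12 (14.31) and 4 (13.87), so replicate 4 was high in both and kept a ratio of 2.42. Lman1l was the gene of the 5 whose KO level varied nearly as much as its WT level, and its KO level passed every WT level on 5 of 12 arrays.

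Shisa2 showed the sharpest division of its WT levels. On replicates 10, 7, 4 and 8 the WT level was 9.95, 9.78, 9.27 and 8.83, and on all others it was at most 6.99. The signal over local background was 33.5, 37.4, 18.4 and 9.97 times on those 4 arrays and at most 3.38 times elsewhere. The KO level ran from 6.77 (replicate 11) to 10.57 (replicate 7). On replicate 11 the KO signal was 2.80 times its background, so in that tumour RNA Shisa2 was hardly detected at all.

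In Moxd1 the WT level ran from 8.59 to 11.72 (SD 1.01), with replicates 4 (11.72), 7 (10.71), 3 (10.67) and 8 (10.65) highest. The KO level ran from 10.51 to 12.80 (SD 0.67), the smallest spread of the 5 genes in either RNA. It exceeded every WT level on 8 of 12 arrays. In Lrrn1 the WT level ran from 6.76 to 10.71 (SD 1.31), with replicates 4 (10.71), 10 (10.55), 7 (9.52) and 8 (9.09) highest. The KO level of Lrrn1 was between 9.60 and 11.08 on 10 arrays and only 8.39 and 8.55 on replicates 5 and 11. The ratio of Lrrn1 near 0 on replicate 5 was thus reached at a low KO level, and that below 0 on replicate 4 at the highest WT level.

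**Figure D3:**
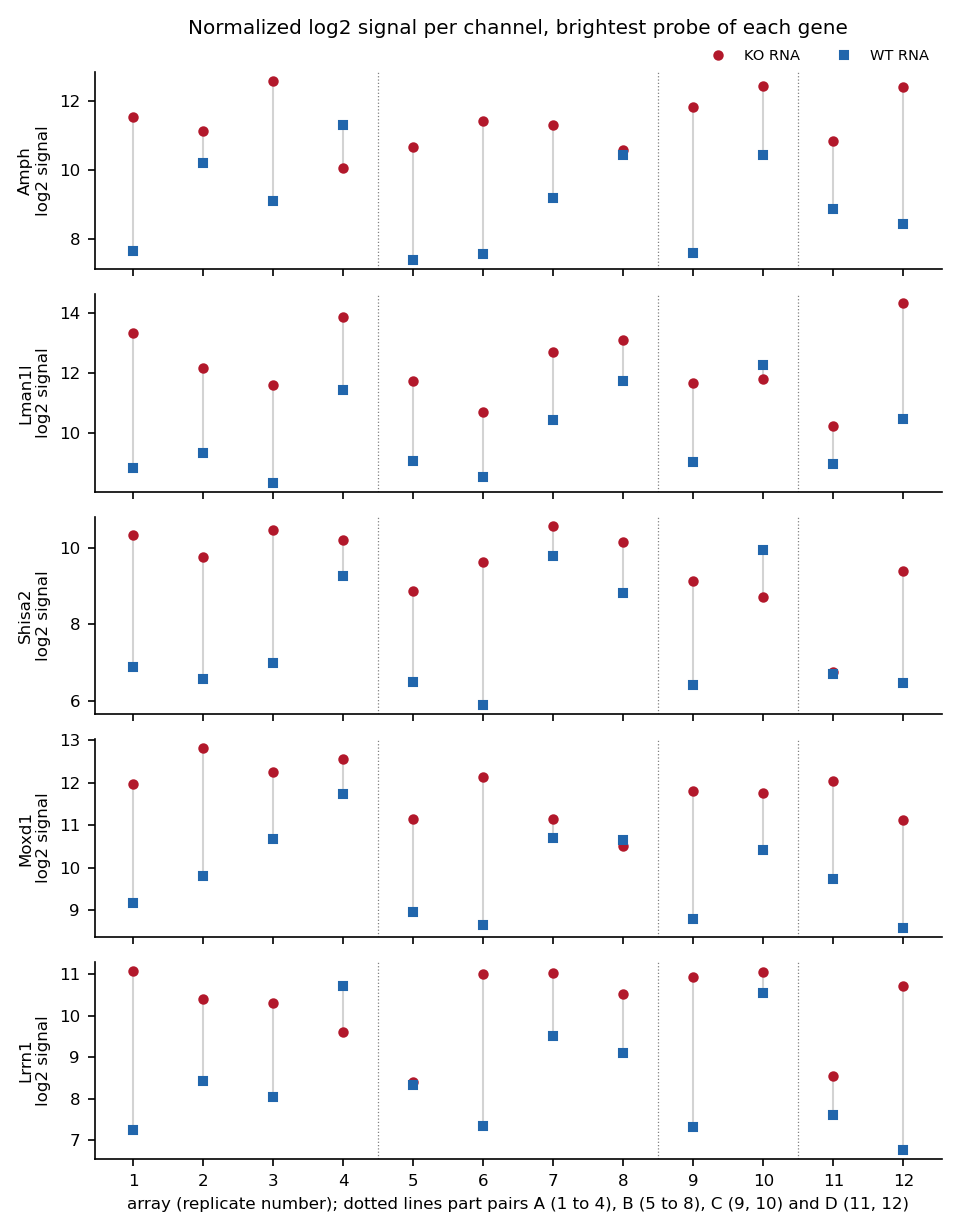
Normalized log2 signal of the KO RNA (red circles) and the WT RNA (blue squares) on each of 12 arrays for the brightest probe of each of the 5 genes, with a grey line joining the RNAs of an array. The WT signal is high on replicates 4, 8 and 10 in several genes at once. The KO signal is lowest on replicate 11 in Lman1l and Shisa2, on replicate 5 in Lrrn1, on replicate 4 in Amph and on replicate 8 in Moxd1.

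Replicates 4 and 8 were among the 4 highest WT levels for 5 of 5 genes, replicate 10 for 4 and replicate 7 for 3. The mean WT level of the 5 genes was 10.89, 10.73, 10.14 and 9.93 on replicates 4, 10, 8 and 7. It was between 7.60 and 8.87 on the other arrays. The mean KO level was 9.69 on replicate 11, 10.15 on replicate 5 and between 10.97 and 11.65 on the others. Over the 12 arrays the WT levels of the 5 genes rose and fell together, with Pearson correlations of 0.55 to 0.89 and a median of 0.80 over the 10 pairs of genes. For the KO levels the 10 correlations ran from -0.26 to 0.58 with a median of 0.03. These correlations describe 12 arrays that share slides, hybridizations and perhaps animals. The WT median lay between 0.74 and 0.86 under 24 alternatives added after the data were seen, and was 0.86 with the mean of each pair removed and 0.86 with the mean of each slide removed. The KO median stayed below it, at up to 0.31 (without pair A) and 0.23 without replicate 4.

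The WT SD of each gene exceeded its KO SD in 5 of 5 genes, and over all kept probes the WT SD was the larger in 55.8%. The median SD over all kept probes was 0.275 for WT and 0.257 for KO, against 1.01 to 1.48 (WT) and 0.67 to 1.23 (KO) for the 5 genes. Because the ratio contains both levels, it is tied to each by construction: it followed the WT level at a Pearson correlation of -0.89 in Amph, -0.82 in Lrrn1, -0.81 in Moxd1, -0.76 in Shisa2 and -0.56 in Lman1l, and the KO level at 0.43 to 0.67. Of 19833 other genes, 128 (0.645%) had a WT level correlated above 0.8 with the mean WT level of the 5, and 34 (0.171%) had a KO level so correlated with the mean KO level.

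Differences between the 4 pairs can be tested, since the genes were chosen on the mean over all arrays. The limma F test over the pair coefficients gave adjusted p of 0.757 for Amph, 0.516 for Lman1l, 0.789 for Shisa2, 0.923 for Moxd1 and 0.977 for Lrrn1, so it called 0 of the 5, and 0 had an unadjusted p under 0.05. The background of that test was 69 of 20313 genes called (0.34%), and 130 of 35349 probes (0.368%) where each probe was tested, in which the 8 probes had adjusted p of 0.507 to 0.978. The mean ratios of Amph over the arrays of pairs A, B, C and D were 1.76, 2.35, 3.10 and 2.99, and those of Lman1l were 3.24, 2.10, 1.07 and 2.54. The KO RNA was in a single dye in each of pairs C and D, so their fitted ratios also depend on the dye term: Amph was fitted at 1.97 in pair C and 4.12 in pair D (SE 1.18 each), the latter above both of its arrays (1.99 and 3.98), and Lman1l at 0.59 in pair C (SE 0.83). These SEs leave room for sizeable differences between pairs, most of all in pairs C and D with 2 arrays each.

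The dye term of the fit was also free of the choice, apart from the uneven dyes within pairs C and D. Among the 8 probes its adjusted p ranged from 0.0828 (other probe of Amph) to 0.977, against 2691 of 35562 probes (7.57%) called for dye over the whole array. The other Amph probe was the only one of the 8 with an unadjusted p under 0.05 for dye. The bright Amph probe had the largest dye term, 0.79 (SE 0.41, limma adjusted p = 0.269). Its mean ratio was 3.16 (SD 0.92, n = 6) with the KO RNA in Cy5 and 1.61 (SD 2.08, n = 6) with it in Cy3. In Lman1l, Shisa2, Moxd1 and Lrrn1 these means differed by less than the SD of either orientation.

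The other probes of Amph, Lman1l and Lrrn1 did not show the rise. The other Amph probe, at chr13:18468714-18468773, reads the cDNA clone AK047144 and lies 49352 bases before the bright one. Its ratio was 0.03 (SE 0.03, n = 12), between -0.29 and 0.15 over arrays. It was dim: the median signal was 2.71 times the local background for KO and 2.33 times for WT, and it was well above background on 9 and 8 of 12 arrays.

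The other Lrrn1 probe, at chr6:107664996-107665055, reads the clone AK012914 and lies 1069 bases beyond the bright one. Its ratio was 0.02 (SE 0.03, n = 12) at a signal 1.72 (KO) and 1.81 (WT) times background. It was well above background on 8 and 6 arrays. The other Lman1l probe reads the same transcript, NM_199222, as the bright one. It spans 421 bases of the genome at chr9:57641324-57641744, against 60 for the bright probe, and starts 6623 bases away. Its ratio was 0.24 (SE 0.10, n = 12), from -0.34 to 1.00, at 6.58 (KO) and 5.73 (WT) times background, and it was well above background on 11 and 12 arrays.

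Over the 12 arrays the ratio of the other probe followed that of the bright probe at a Pearson correlation of 0.58 in Lman1l, 0.33 in Amph and 0.23 in Lrrn1. The 2 probes of a gene differed in the size of the ratio in all 3 genes that had more than 1 probe. With the mean of the kept probes in place of the brightest, the log2 ratio was 1.21 for Amph, 1.30 for Lman1l and 0.96 for Lrrn1. For Shisa2 and Moxd1 the rise rests on a single probe each. Which transcript forms the probes read was not analysed here beyond the accessions given.

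Genes of the families around the 5 genes were tested in the same fit, and their counts are to be read against the 5.28% of all genes called higher and the 5.37% called lower. In the endocytosis list around Amph (dynamins, endophilins, clathrin and its AP-2 adaptor, other membrane-bending proteins) 0 of 31 measured genes rose and 4 fell, with a median of -0.11. Cltb, a clathrin light chain, fell by 0.55 (SE 0.06, limma adjusted p = 0.00101, below 0 on 12 of 12 arrays). Synj1, the phosphatase that uncoats vesicles, fell by 0.52 (SE 0.12, adjusted p = 0.0182, limma), and Pacsin3 fell by 0.31 (adjusted p = 0.0217, limma). Dnm2, the widely expressed dynamin, was the borderline case at -0.34 (limma adjusted p = 0.0491), and its call was lost without any one array except replicate 10 (adjusted p up to 0.107, without replicate 9). With the series matrix values Cltb was at -0.19 and not called. No gene of this list passed the test in the direction of Amph. Bin1 (0.28, limma adjusted p = 0.188) was the only higher gene among the 12 at an unadjusted limma p under 0.05.

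In the early secretory pathway around Lman1l (cargo receptors, COPII coat, chaperones) limma called 0 of 26 genes in either direction, with 7 at an unadjusted p under 0.05 and a median of 0.05. Of the Shisa family 5 of 7 genes were on the array and limma called 0 of them, with 1 at an unadjusted p under 0.05. Among the 14 Frizzled and fibroblast growth factor receptors, on which Shisa proteins are known to act, 3 were called higher and 0 lower. The median was 0.09. Fzd7 rose by 0.70 (SE 0.15, limma adjusted p = 0.0129), Fzd2 by 0.54 (SE 0.10, adjusted p = 0.00947) and Fzd1 by 0.42 (SE 0.10, adjusted p = 0.0232). They were above 0 on 10, 11 and 11 of 12 arrays, and the call of Fzd1 was lost without replicate 12 (limma adjusted p = 0.0562). Without pair B limma called 0 of these receptors higher. Of the 14, 7 had an unadjusted limma p under 0.05, all higher except Fzd4 (-0.52, limma adjusted p = 0.0992). Fzd6 was at -0.40 (limma adjusted p = 0.296).

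Among copper monooxygenases and copper supply, the list around Moxd1, 0 of 13 genes rose and 2 fell. Pam, the copper enzyme that amidates peptide hormones, was at -1.35 (SE 0.36, limma adjusted p = 0.0368) and differed between pairs, as given in the closing section. Its call was lost without any one of 8 arrays (adjusted p up to 0.0812, without replicate 3). Cyb561, which supplies electrons to such enzymes, fell by 0.36 (SE 0.08, limma adjusted p = 0.0143). Ddc (1.08, limma adjusted p = 0.126) was the only higher gene among the 4 of this list at an unadjusted limma p under 0.05. Among the leucine-rich repeat surface proteins around Lrrn1, 1 of 18 measured genes rose and 0 fell. That gene was Flrt3, a cell adhesion protein, at 0.50 (SE 0.14, limma adjusted p = 0.0411), and its call was lost without any one of 9 arrays (adjusted p up to 0.0986, without replicate 9).

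**Figure D4:**
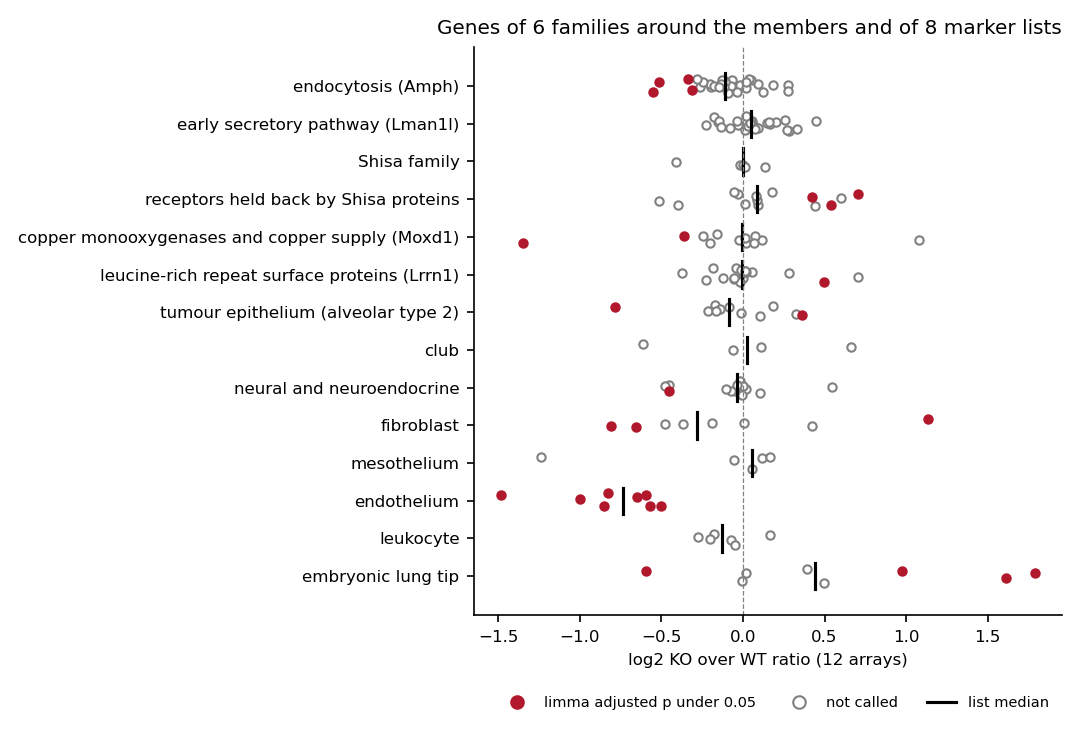
Log2 KO over WT ratio over 12 arrays of the measured genes of 6 family lists and 8 cell type marker lists (points, red where the limma adjusted p was under 0.05), with the median of each list as a black bar. The endothelial list is lower as a whole, the embryonic lung tip list has the highest median, and the family lists lie around 0.

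Marker lists were read for cells that could hold the 5 genes. Of 13 neural and neuroendocrine markers, the setting in which Amph and Lrrn1 are best known, 0 rose and 1 (Stmn2) fell, with a median of -0.04. The mean level of the list was 7.73 to 8.16 in KO and 7.79 to 8.28 in WT. Stmn2 was at -0.45 (limma adjusted p = 0.0301), a call lost without any one of 6 arrays (adjusted p up to 0.0623, without replicate 7). No neural marker passed the test in the direction of Amph and Lrrn1. At an unadjusted limma p under 0.05 there were 4 of the 13. Stmn2, Uchl1 (-0.48) and Ncam1 (-0.07) were lower and Gap43 (0.54, limma adjusted p = 0.168) was higher. Gap43 was well above background on 11 of 12 arrays in KO RNA and on 7 in WT RNA.

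All 8 endothelial markers fell, with a median of -0.74 and values between -1.48 and -0.50. The tight junction gene Cldn5 was at -1.48 (SE 0.15, limma adjusted p = 0.000319) and the transcription factor gene Erg at -0.997 (SE 0.087, adjusted p = 0.000155). The mean level of the list was 9.26 to 9.76 in KO and 10.06 to 10.79 in WT, without overlap. Over arrays the ratios of the 5 genes followed the mean ratio of this list at Pearson correlations of -0.51 (Amph) to -0.22 (Lman1l). Of the 8 fibroblast markers Lum rose and Pdgfra and Postn fell. Abca3 rose and Lamp3 fell among the 11 genes of the alveolar type 2 list. Limma called 0 of 4 club, 0 of 5 mesothelial and 0 of 6 leukocyte markers, with 0, 1 and 1 at an unadjusted p under 0.05. Leaving out 1 array lost the calls of Lum (replicate 9, limma adjusted p = 0.0558) and Lamp3 (replicate 12, adjusted p = 0.0553). Leaving out any one of 9 arrays lost those of Pdgfra and Abca3. With the mean of kept probes Abca3 was at 0.08, Pdgfra at -0.34 and Lamp3 at -0.50. Their brightest probes gave 0.36, -0.66 and -0.78. The part of these lists in the rises of the 5 genes was not tested.

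The embryonic lung tip list holds genes of the progenitor cells at the ends of growing airways, though genes such as Hmga2 are not confined to those cells. The ratio of the club list was followed at 0.58 by Lman1l and at 0.65 by Shisa2. The embryonic lung tip list was the marker list whose ratio the 5 genes followed most closely, except for Lman1l. Of its 8 members 3 rose and 1 fell, with a median of 0.44: Hmga2 at 1.61 (SE 0.27, limma adjusted p = 0.00474), Sox9 at 1.79 (SE 0.46, adjusted p = 0.0286) and Id2 at 0.98 (SE 0.24, adjusted p = 0.0231) were higher and Etv5 at -0.59 (SE 0.13, adjusted p = 0.0166) was lower. The call of Sox9 was lost without any one of 4 arrays (replicates 1, 3, 11 and 12, adjusted p up to 0.064) and that of Id2 without replicate 3 (adjusted p = 0.052). Without pair B limma called 0 genes of the list higher, Hmga2 included. With the mean of kept probes in place of the brightest, Hmga2 was at 0.71 and Sox9 at 1.19. Over arrays the ratios of the 5 genes followed the mean ratio of this list at Pearson correlations of 0.90 (Lrrn1), 0.84 (Amph), 0.72 (Shisa2), 0.59 (Moxd1) and 0.53 (Lman1l). The mean level of the 5 genes followed the mean level of the list at 0.76 in WT RNA and 0.83 in KO RNA. The mean level of the list itself was 8.89 to 10.22 in KO and 8.39 to 9.93 in WT.

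Sox9, a transcription factor of those progenitors, followed the 5 genes on some arrays and not on others. Its WT level was 12.98 on replicate 4, 11.15 on replicate 2 and 10.39 on replicate 8 and as low as 7.31 on replicate 5, and its ratio was 4.65 on replicate 1 and -1.66 on replicate 4. The arrays with the extreme ratios of Sox9 within pair A were thus those of Amph and Lrrn1. In pairs C and D this was not so: the ratio of Sox9 was 1.52, 1.25 and 1.18 on replicates 9, 10 and 12, where the mean ratio of the 5 genes was 3.24, 0.42 and 3.44. The WT level of Sox9 was 9.80 on replicate 10 and 10.28 on replicate 12, where the mean WT level of the 5 genes was 10.73 and 8.14. The mean level of the alveolar type 2 list followed that of the 5 genes at -0.58 in WT RNA and -0.10 in KO RNA. For the endothelial list these values were -0.52 and -0.33, and for the fibroblast list -0.12 and -0.61. The levels carry no dye term. The WT level of Sftpc, of the alveolar type 2 list, was 16.52 to 17.53 on the arrays with WT RNA in Cy3. It was 18.24 to 18.62 on those with WT RNA in Cy5. The part of the dye in these correlations was not tested. What links these levels was not tested.

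For each of the 5 genes the 3 named genes with the most similar ratio over the 12 arrays were taken as a description of likeness only. For Amph these were Utp4 (0.98), Rbm34 (0.96) and Pabpc4 (0.96), whose mean log2 ratios were -0.09, -0.06 and 0.42. For Lman1l they were Alox12 (0.92), Spag4 (0.92) and Ifnl3 (0.91), with ratios of 0.30, 0.12 and 0.04. For Shisa2 they were Hpgds (0.94), Vil1 (0.94) and Cubn (0.93), with ratios of 0.01, 1.73 and 2.11. Villin (Vil1) and cubilin (Cubn), proteins of absorptive epithelium with a brush border, were the 2 with rises of similar size.

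For Moxd1 the most similar were Hspbap1 (0.90), Rrp12 (0.88) and Hsph1 (0.87), with ratios of 0.00, -0.08 and 0.36. For Lrrn1 they were Sinhcaf (0.95), Traf4 (0.94) and R3hcc1 (0.92), with ratios of 0.35, 0.20 and -0.02. Most of these genes followed one of the 5 from array to array while their mean ratio stayed near 0. Vil1 and Cubn were called higher (limma adjusted p = 0.025 and 0.0378), as was Pabpc4 (limma adjusted p = 0.0411), and leaving out any one of 3, 8 and 10 arrays lost these calls (adjusted p up to 0.0594, 0.0845 and 0.0894). Of 19837 genes compared, 129 exceeded a correlation of 0.8 with Amph, 102 with Lrrn1, 83 with Lman1l, 56 with Shisa2 and 28 with Moxd1. The level of Cubn in WT RNA was 13.55, 11.79, 11.52 and 11.33 on replicates 10, 8, 7 and 4 and at most 9.90 on the others, and these are also the 4 arrays on which Shisa2 was highest in WT RNA.

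The genes next to the 5 on the chromosome were tested, since the choice did not use them. Of the 30 nearest measured neighbours, 3 on each side of each gene, 2 were called higher and 3 lower, with a median of -0.03, beside 5.28% and 5.37% of all genes. Beside Shisa2, Atp8a2, a phospholipid flippase, was at 1.22 (SE 0.35, limma adjusted p = 0.0473, above 0 on 10 of 12 arrays) and is read 16.2 kb from the Shisa2 probe. The ratio of Atp8a2 followed that of Shisa2 at a Pearson correlation of 0.65 over the 12 arrays. Its call is marginal, since over all probes its adjusted p was 0.0515 and leaving out any one array except replicate 10 lost it (adjusted p up to 0.0955, without replicate 3). Mtmr6, on the same side of Shisa2, fell by 0.27 (SE 0.06, limma adjusted p = 0.0206).

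Beside Lman1l, Cyp1a1, a cytochrome P450 induced through the aryl hydrocarbon receptor, fell by 1.60 (SE 0.34, limma adjusted p = 0.0131, below 0 on 12 of 12 arrays). The nearest neighbours of Lman1l on either side, Cplx3 at 0.00 and Csk at 0.11, did not pass the test. Beside Moxd1, Ccn2, a matrix-associated growth factor, fell by 0.77 (SE 0.13, limma adjusted p = 0.00479). Beside Lrrn1, Crbn, a subunit of a ubiquitin ligase, was at 0.44 (SE 0.12, limma adjusted p = 0.0338), a call lost without any one of 8 arrays (adjusted p up to 0.075, without replicate 3). The nearest measured neighbours of Amph on either side, Vps41 at -0.01 (SE 0.04, limma adjusted p = 0.950) and the T cell receptor gamma locus at -0.01 (SE 0.03, limma adjusted p = 0.872), did not pass the test.

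Within 250 kb of each bright probe, the other genes' probes that were kept numbered 26 for Lman1l, 8 each for Amph and Shisa2, 2 for Moxd1 and 0 for Lrrn1. Against the 9.04% of all probes called, 1 of the 26 around Lman1l was called higher (Ppcdc at 0.47, limma adjusted p over all probes of 0.00305, above 0 on 12 of 12 arrays) and 1 lower (Cyp1a1 at -1.60, limma adjusted p = 0.0145). The 8 probes around Amph lay between -0.01 and 0.12. No run of raised probes was seen among the 26 around Lman1l. The other windows were too sparse to show one near the gene. Around Amph the nearest probe of another gene lay 154.2 kb away. Around Shisa2 the only probe at higher coordinates was that of Atp8a2, at 1.22. Around Moxd1 the 2 probes lay at -193 and -114.4 kb, both on the lower side. Around Lrrn1 no probe of another gene was kept.

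**Figure D5:**
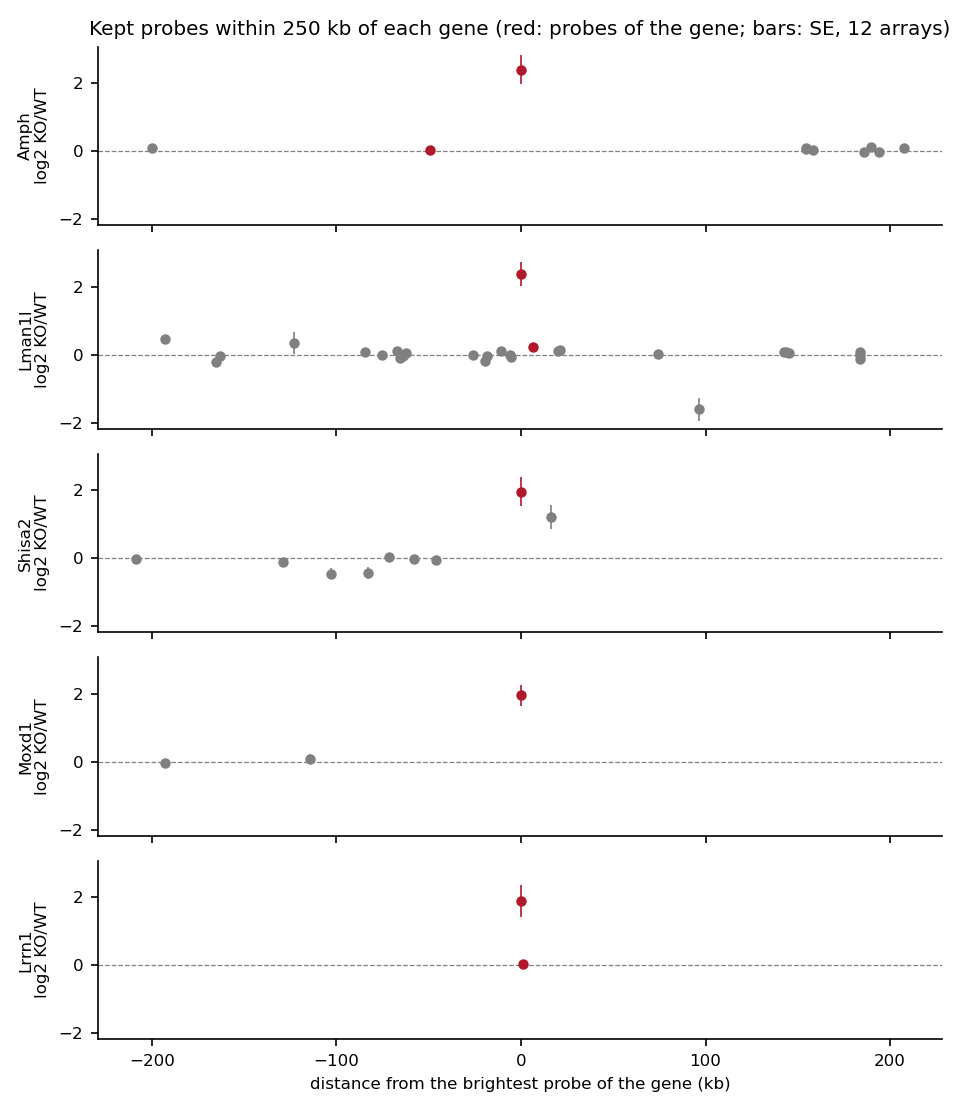
Log2 KO over WT ratio (SE bars, 12 arrays) of kept probes within 250 kb of the brightest probe of each of the 5 genes, by distance in kb, with probes of the gene itself in red. Around Shisa2 the Atp8a2 probe 16.2 kb away is at 1.22 without being called over all probes, and around Lman1l the probes of Ppcdc (0.47) and Cyp1a1 (-1.60) were called.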

How the data were processed

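Spot intensities and local background intensities were deposited unnormalized for both dyes of 12 arrays. Per the file headers they come from Agilent Feature Extraction 10.1.1.1 (protocol GE2-v5_10_Apr08, array design 014868). Deposited flag scores (0 or 1) mark spots as saturated, as outlying or as well above background. As an alternative, the processed intensities were used, from which Agilent's software had subtracted background and dye differences, per the file headers. The authors' deposited series matrix holds log2 ratios, for which the submitters' processing notes name limma. Against the ratios computed here each column correlated at 0.991 to 0.997 with KO over WT already turned, and its median lay between -0.011 and 0.0078, while how it was centred stays unknown.

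Mean signals were corrected with normexp (offset 50) and loess in limma 3.58.1 (R 4.3.3, statmod 1.5.0). Spots whose local background was marked as outlying took the array median. Of 43379 spots, 41174 probes were formed, and 35562 were kept as well above background for KO or WT on at least 6 of 12 arrays. RefSeq accessions (GRCm38.p6 table) named 22951 probes, the files named 11507, and 6716 had no name. A gene with several kept probes was read by the brightest on average. The fit had a dye term, a KO over WT coefficient and the pair as random block (consensus correlation -0.0282), with Benjamini-Hochberg adjustment over 20419 genes or over all probes. A second fit gave each pair its own coefficient, compared by an F test. Levels per RNA are log2 signals after loess and Aquantile, and levels of different probes were not compared. Precision is limited by the number of arrays, and no spot of the 5 genes was saturated.

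Called means an adjusted p under 0.05. The members, gene lists and tests were chosen with earlier results of these data known. In each list up to 4 called genes of smallest p are named, with the 3 nearest measured neighbours on each side and the 3 most similar genes (clone names left out), and Cubn, Vil1, Sox9 and Ppcdc were singled out after their values were seen. The fits were tested on simulated data with independent noise on each array. Such data cannot show the effect of arrays that share an animal or slide. Probe sequences and proteins were not used here.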

Additional observations from a re-analysis of the deposited data

Results flagged for a closer look

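Among 79 named genes, 1 differed in its KO over WT ratio between the pairs of age and sex labels: Pam (limma F test, adjusted p = 0.0397). Over all genes the same test called 69 of 20313 (0.34%). Pam is the copper monooxygenase of peptide amidation and a relative of Moxd1. Pairs A, C and D gave fitted log2 ratios of -2.75, -1.64 and -1.27, whereas pair B gave 0.17. The WT level of Pam was 7.50 to 7.66 on the 4 arrays of pair B and 9.40 to 12.68 on the other 8, while the KO level was 7.41 to 10.03 over all 12. Pair B therefore stood apart in its WT RNA. The difference was lost without any one of 10 arrays, that is, all but replicates 1 and 12 (adjusted p up to 0.132, without replicate 8), and with the mean of its kept probes (adjusted p = 0.241, limma). Moxd1 itself had an adjusted p of 0.923 in the same test.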

How the results depend on the processing

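Under 32 alternatives the ratios of Amph, Lman1l, Moxd1 and Lrrn1 stayed above 0, and that of Shisa2 under 31, since its probe fails a filter on all 12 arrays. All 159 values moved by less than the SD between arrays, which does not test the rise, since the genes were chosen on this ratio. Those of Amph ranged from 1.21 to 3.05, those of Lrrn1 fell to 0.96 with the mean of kept probes, and those of Shisa2 from 1.12 within slide 3 to 3.32 with Agilent's processed signals. Of all genes, 2175 were called, between 1394 and 2263 when 1 array was left out (1394, 1448 and 1399 without replicates 3, 7 and 12). Without pairs A, B, C and D 707, 1026, 1259 and 1282 were called, with arrays averaged by pair 48, and within slides 1, 2 and 3 0, 1 and 0. Fewer arrays enter these fits. Between pairs 69 genes were called, 16 with local backgrounds as deposited, 165 with median centring, 21 to 237 when 1 array was left out (237 without replicate 12), 0 without pair A and 6 without pair B. The median correlation of KO levels among the 5 genes was 0.03, and 0.199 with no scaling between arrays, 0.225 without replicate 4 (from -0.045 to 0.225 when 1 array was left out), 0.305 without pair A, 0.189 without pair B and 0.191 with pair means removed. The ratio of Pam was 0.17 within slide 2, against -1.35 over all arrays. Within each slide of 4 arrays every call the text names was lost, Dnmt3a included, and with arrays averaged by pair all but those of Sox9, Pecam1 and Erg. Local backgrounds as deposited ended the calls of Dnmt3a, Pam, Etv5, Dnm2, Lum, Pdgfra, Stmn2, Abca3, Cyp1a1, Atp8a2, Crbn and Cubn, and median centring those of Cyb561, Pam, Pacsin3, Dnm2, Pdgfra and Mtmr6. The cause of these changes was not tested. Dim probes limit the other probes of Amph and Lrrn1 and the WT level of Shisa2.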
